A study of Mus musculus with 18 samples.

Results

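The data described here are the transcript levels of 9 genes that mark brown fat or act in its activation, taken from RNA-seq of mouse brown adipocytes. The members were the rows of the count table whose symbol is Prdm16, Ebf2, Irf4, Dio2, Cidea, Elovl3, Cox7a1, Cox8b or Otop1, a list of regulators and effectors that leaves out the uncoupling proteins and PGC-1. All 9 were among the 20295 genes of the table, and 8 of them passed the filter on low counts that kept 12156 genes, while Dio2 did not. The cells were BAT-LgT, brown preadipocytes of wild-type genotype that carry the SV40 large T antigen as an immortalising agent and were differentiated in culture, so that every group is a treatment of 1 cell line and holds no other cells of the tissue. On day 7 of differentiation the cells were left without inhibitor or given blockers of ATGL and HSL, the enzymes that split triglyceride (Lipase Inh.), for 1 h, and then Vehicle (DMSO), 100 nM isoproterenol (ISO) or SR-3420 for 3 h. This gave 6 groups of 3 samples, 18 in all, called Vehicle, ISO and SR-3420 without the blockers, and with them Lipase Inh. + SR-3420, Lipase Inh. + ISO and, as their control, Lipase Inh. + Vehicle. The labels give 10 µM as the dose of SR-3420 and the study's text gives another dose, which was not settled here. The question these groups address is which part of the response to a β-adrenergic signal passes through the breakdown of stored triglyceride.

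Brown adipocytes burn fatty acids to make heat. Noradrenaline acts on β-adrenergic receptors, raises cyclic AMP and activates protein kinase A, which starts lipolysis and also signals to the nucleus. ISO is an agonist of all β-adrenergic receptors, whereas SR-3420 is a ligand of ABHD5, the co-activator of ATGL, and switches on lipolysis without a receptor signal. Prdm16 and Ebf2 encode transcription factors that set and hold the identity of brown adipocytes, and Irf4 encodes a factor of fasting and cold that works with PGC-1α on thermogenic genes. Dio2 encodes the deiodinase that makes active thyroid hormone inside the cell. Cidea encodes a lipid droplet protein, Elovl3 an elongase of very long chain fatty acids that is strongly induced by cold, Cox7a1 and Cox8b the subunits of cytochrome c oxidase found in heart, muscle and brown fat, and Otop1 a proton channel of the otopetrin family that is enriched in brown fat.

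Levels below are library-scaled counts (CPM, with TMM factors), given per kilobase of counted length only where genes are compared with each other. Adjusted p-values come from edgeR's quasi-likelihood test over all 18 samples with Benjamini-Hochberg adjustment over the 12156 genes. A gene passed at an adjusted p of at most 0.05 and was called if its log2 fold change was besides 1 or more in either direction. The study speaks of independent experiments, and 3 samples a group limit what can be seen. Total counts ran from 10310447 to 21205032 in 17 libraries. Lipase Inh. + SR-3420 replicate 2 stood apart with 4263755 counts, 18.3% of them from Lars2 against at most 0.121% elsewhere. Mature adipocyte markers were abundant in every library (10 genes, summed level 22125 to 38021 CPM). Markers of skeletal muscle (8 genes, 1.15 to 2.63 CPM, 5 of them at 3 counts or fewer in every library), macrophages (5 genes, 2.34 to 6.30 CPM) and endothelium (4 genes, at most 0.631 CPM) were at or near 0. White adipocyte markers (9 genes) summed to 713 to 1341 CPM and preadipocyte and fibroblast markers (9 genes) to 190 to 327 CPM. Several of these sums moved with ISO without overlap. Mature adipocyte markers were at 22698 to 25026 CPM with Vehicle and 28983 to 30650 CPM with ISO, and under inhibitors at 22125 to 22531 CPM and 34550 to 38021 CPM. White markers were at 870 to 969 CPM with Vehicle and 1100 to 1341 CPM with ISO, and under inhibitors at 791 to 801 CPM and 1057 to 1187 CPM. Macrophage markers were at 2.34 to 3.97 CPM with Vehicle and 4.10 to 6.30 CPM with ISO, with Ptprc at 0 in every library. Gene by gene the directions were mixed. Of the 10 mature adipocyte genes tested, 5 rose and 1 fell with ISO, and 6 rose and 1 fell under inhibitors. Of the 5 white genes tested, 2 rose and 1 fell with ISO, and 2 rose and 2 fell under inhibitors. Of all genes, 51.8% passed with ISO and 57.7% with ISO under inhibitors. The part of the shifts in these sums in the ISO results was not tested. Scaling by total counts in place of TMM moved the median log2 fold change of all genes by -0.31 for ISO against Vehicle, by -0.16 for SR-3420 against Vehicle and by -0.23 for Lipase Inh. + ISO against Lipase Inh. + Vehicle, and fold changes are given relative to the TMM scale. Of the genes called, 55.3% were higher with ISO, 62.6% with SR-3420 and 41.6% with ISO under inhibitors, which became 22.2%, 40.1% and 23.4% under total counts.

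Elovl3, Irf4, Otop1 and Prdm16 rose at least 2-fold with ISO, Elovl3 and Otop1 also rose with SR-3420, and Irf4 fell with SR-3420. In RNA from whole cultures, fewer cells that express a gene and less RNA of it per cell cannot be told apart. Of the 8 members tested, 4 rose and 1 fell with ISO at the adjusted p alone, where 51.8% of all genes tested passed, and the 4 that rose were also called, where 9.11% of all genes were. With SR-3420, 3 rose and 2 fell against a background of 51.4%, and 2 were called, both higher, against 6.33%. With inhibitors alone none of the 8 passed by edgeR's test or by DESeq2, where 0.913% of genes passed and 0.0494% were called, and 1, Otop1, had an unadjusted p under 0.05. In the presence of inhibitors, ISO raised 3 and lowered 1 (background 57.7%) and only Elovl3 was called (13.1%), and SR-3420 raised 1, Elovl3 (4.34%), with none called (0.296%). At the adjusted p alone these member counts lie near the background of the ISO and SR-3420 comparisons. The median log2 fold change of the 8 members was 0.62 with ISO and 0.22 with SR-3420, beside -0.02 over all genes in both. The members were chosen with earlier results of these data known, so neither these medians nor the counts called test the list.

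**Figure D1:**
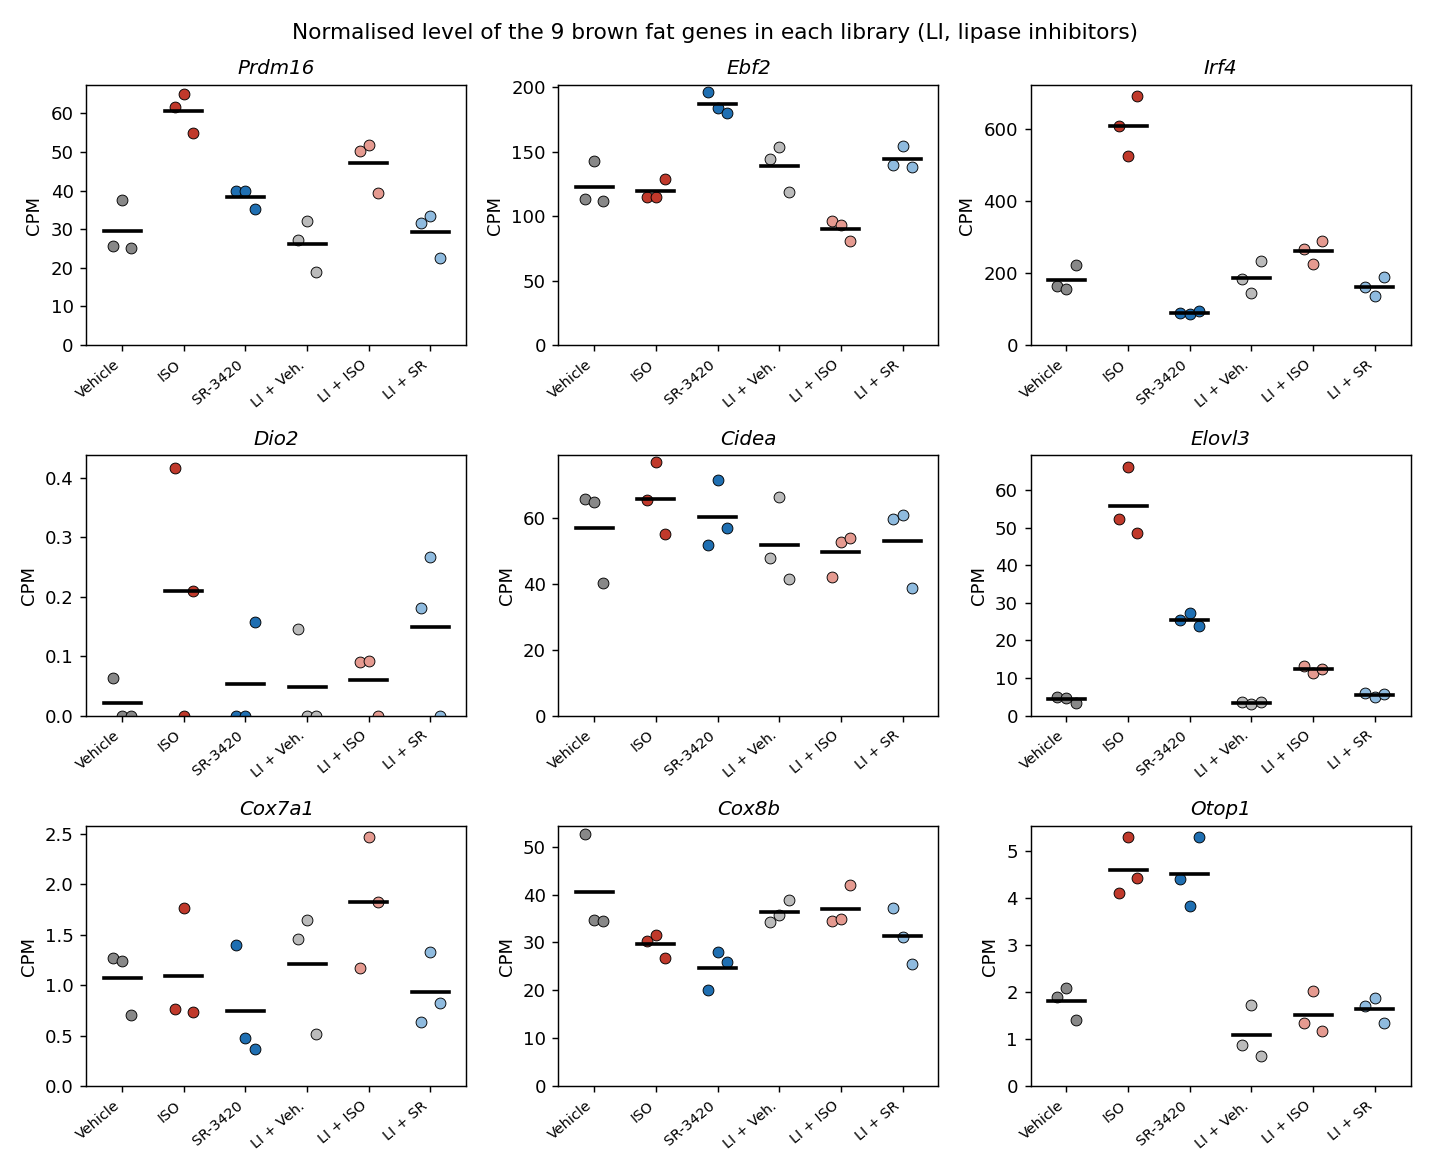
Normalised level (CPM, linear axes from 0) of each of the 9 genes in the 18 libraries; points are libraries in replicate order, bars are group means, and LI stands for lipase inhibitors. Elovl3 and Irf4 in the 3 ISO libraries lie above all other libraries, Irf4 in the 3 SR-3420 libraries lies below all others, and Dio2 stays under 0.5 CPM throughout.

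The promoters of Irf4, Otop1 and Prdm16, called with ISO, are shown because these genes rose together within 3 h. Each window holds the 250 bases before the first annotated start, on mm9 (NCBIM37) and read in the direction of the gene. Capitals mark matches to the motifs searched.
Irf4 (chr13:30840845-30841094, plus strand): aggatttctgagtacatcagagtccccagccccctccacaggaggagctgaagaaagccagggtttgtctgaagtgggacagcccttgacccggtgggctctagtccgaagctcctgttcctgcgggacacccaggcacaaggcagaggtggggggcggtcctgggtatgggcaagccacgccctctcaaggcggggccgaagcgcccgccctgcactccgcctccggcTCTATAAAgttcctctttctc
Otop1 (chr5:38668393-38668642, plus strand): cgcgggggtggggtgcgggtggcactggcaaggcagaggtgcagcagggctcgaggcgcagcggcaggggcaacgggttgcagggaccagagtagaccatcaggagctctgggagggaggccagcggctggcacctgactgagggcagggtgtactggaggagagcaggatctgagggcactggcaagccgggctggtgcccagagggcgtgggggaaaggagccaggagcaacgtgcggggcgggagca
Prdm16 (chr4:154010983-154011232, minus strand): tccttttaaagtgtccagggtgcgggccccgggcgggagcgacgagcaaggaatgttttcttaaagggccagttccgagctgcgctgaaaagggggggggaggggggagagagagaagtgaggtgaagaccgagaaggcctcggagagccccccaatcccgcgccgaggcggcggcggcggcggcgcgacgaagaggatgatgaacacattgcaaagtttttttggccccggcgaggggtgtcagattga
Motifs were searched on both strands in the windows of 8 members, Dio2 among them. The promoter of Elovl3 was not searched and is not reported here. For comparison, 20292 windows of the same length before the starts in the table were searched, without the move to GENCODE starts. The motifs were chosen after the values of these genes were known. The cyclic AMP response element TGACGTCA was in none of the 8 windows and in 2.14% of all, and its half-site TGACG, which is part of it, was in 1 of the 8, that of Ebf2, and in 21.2% of all. AGGTCANAGGTCA, the direct repeat that PPAR and RXR bind, was in none of the 8 and in 0.0542% of all. GAAANNGAAA, a repeat of the core that interferon regulatory factors bind, was in the window of Dio2 and in 3.08% of all. TCCCNNGGGA, the EBF palindrome, was in the window of Cidea and in 0.843% of all. TATANA was in the window of Irf4, from 21 bases before the start, and in 20.0% of all. These are matches of letters only.

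Prdm16 (NM_001177995, chr4:153690234-154010982, minus strand, 8433 counted bases) rose with ISO. Its level was 25.8, 37.5 and 25.1 CPM in the 3 Vehicle libraries and 61.6, 65.1 and 54.9 CPM in the 3 ISO libraries. The groups did not overlap, and the log2 fold change was 1.04 ± 0.17 (SE, n = 3 a group; adjusted p = 2.31e-05). It passed in all 25 other fits, with values from 0.73 to 1.25, and was under the threshold of 1 in 4 of them: under total counts and without Vehicle replicate 1, Vehicle replicate 3 or ISO replicate 2. With inhibitors, ISO took it from 27.3, 32.1 and 19.0 CPM to 50.2, 51.7 and 39.4 CPM, a log2 fold change of 0.85 ± 0.17 (adjusted p = 0.000205), again without overlap. The difference between these effects was -0.19 with a 95% interval of -0.69 to 0.31 (adjusted p = 0.595), so that an effect of the inhibitors on the rise of Prdm16 was not detected within an interval of that width. SR-3420 gave 39.8, 39.9 and 35.3 CPM, which overlapped Vehicle, with a log2 fold change of 0.38 ± 0.17 (adjusted p = 0.0701). That value passed in 5 of the 25 other fits. Among them were the fit without Vehicle replicate 2 (0.59, adjusted p = 0.0101) and the fit with a block for replicate number (0.40, adjusted p = 0.00161). ISO lay above SR-3420 by 0.66 ± 0.16 (adjusted p = 0.00428), a comparison in which 29.7% of all genes passed.

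Ebf2 (NM_001276387, chr14:67852129-68049789, plus strand, 5532 counted bases) moved in a different way: ISO left it near Vehicle, SR-3420 raised it, and ISO given with inhibitors lowered it. It was at 114, 143 and 112 CPM with Vehicle, at 115, 115 and 129 CPM with ISO and at 196, 184 and 180 CPM with SR-3420. The log2 fold change was -0.04 with ISO (95% interval -0.24 to 0.17) and 0.61 ± 0.10 with SR-3420 (adjusted p = 2.58e-05), where the 3 libraries lay above all Vehicle libraries. With inhibitors the levels were 145, 154 and 119 CPM with Vehicle, 96.0, 93.6 and 80.7 CPM with ISO and 140, 154 and 138 CPM with SR-3420. ISO thus lay below its own control, at a log2 fold change of -0.63 ± 0.10 (adjusted p = 1.36e-05), without overlap, and the rise with SR-3420 was no longer seen. The difference between the effects with and without inhibitors was -0.59 ± 0.14 for ISO (adjusted p = 0.00258) and -0.56 ± 0.14 for SR-3420 (adjusted p = 0.00465). Under scaling by total counts the value for ISO against Vehicle was -0.35 and passed (adjusted p = 0.00639). Ebf2 took 32.7% ± 0.450 (SD, n = 3) of the summed per-length level of the 4 EBF genes with ISO and 45.3% ± 1.73 (SD) with Lipase Inh. + ISO. In that group it overtook Ebf1, its close relative, which was chosen for mention after its values were seen. Ebf1 had a log2 fold change of 0.04 with ISO, and of -0.26 under scaling by total counts, which passed (adjusted p = 0.0281). With ISO under inhibitors it was -1.45 ± 0.09 (adjusted p = 1.02e-11), an interaction of -1.49 ± 0.12 (adjusted p = 6.59e-09).

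Irf4 (NM_013674, chr13:30841127-30858796, plus strand, 4683 counted bases) was the member on which ISO and SR-3420 acted in opposite directions. It stood at 163, 155 and 221 CPM with Vehicle, rose to 608, 525 and 691 CPM with ISO and fell to 90.2, 85.8 and 95.1 CPM with SR-3420. No library of one of these groups reached the range of another. The log2 fold change was 1.76 ± 0.15 with ISO (adjusted p = 3.56e-09) and -0.99 ± 0.15 with SR-3420 (adjusted p = 1.81e-05), just short of the threshold of 1. That threshold was passed in 4 of the 25 other fits, under total counts and without Vehicle replicate 1 or 2 or SR-3420 replicate 3, over a range of -1.15 to -0.81. ISO lay above SR-3420 by 2.75 ± 0.16 (adjusted p = 2.89e-11). Inhibitors drew both responses towards the control: the levels were 182, 145 and 232 CPM with Lipase Inh. + Vehicle, 267, 225 and 289 CPM with Lipase Inh. + ISO and 160, 135 and 189 CPM with Lipase Inh. + SR-3420. These 3 groups overlapped with their neighbours. ISO then raised Irf4 by 0.48 ± 0.15 (adjusted p = 0.0092), which did not pass under scaling by total counts (0.26, adjusted p = 0.172) or without Lipase Inh. + Vehicle replicate 2 (0.34, adjusted p = 0.0634), and SR-3420 gave -0.19 ± 0.15 (adjusted p = 0.599). The interaction was -1.28 ± 0.21 for ISO (adjusted p = 7.67e-05) and 0.79 ± 0.22 for SR-3420 (adjusted p = 0.0092).

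Among the 9 interferon regulatory factors, Irf4 was the most abundant per length in 5 of the 6 groups. Its share of their summed level was 38.3% ± 5.43 (SD, n = 3) with Vehicle, 75.3% ± 3.11 with ISO and 25.9% ± 1.16 with SR-3420, where Irf2 came first. Of the other 8, 7 were tested and none rose with ISO, while 4 fell (57.1%, beside 51.8% of all genes), with log2 fold changes of -0.50 ± 0.13 for Irf1, -0.63 ± 0.08 for Irf2, -0.44 ± 0.11 for Irf3 and -0.79 ± 0.10 for Irf9. These factors act mainly in interferon responses, and under scaling by total counts 5 fell and none rose with ISO without inhibitors. Under inhibitors, ISO raised 1 and lowered 3 of the 7, 57.1% beside 57.7% of all genes. Irf9 had group means of 7.33 CPM per kb in Lipase Inh. + Vehicle and 10.9 in Lipase Inh. + ISO.

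Elovl3 (NM_007703, chr19:46206389-46210184, plus strand, 1870 counted bases) had the widest range of the tested members in fold between group means. It stood at 4.87, 4.79 and 3.35 CPM with Vehicle, at 52.4, 66.1 and 48.5 CPM with ISO and at 25.4, 27.3 and 23.9 CPM with SR-3420. With inhibitors it stood at 3.50, 3.13 and 3.58 CPM with Vehicle, at 13.3, 11.3 and 12.5 CPM with ISO and at 6.04, 5.06 and 5.73 CPM with SR-3420. Ranked by group mean, ISO came first, SR-3420 next and Lipase Inh. + ISO after it, each passing a test against the one that followed. Lipase Inh. + SR-3420, Vehicle and Lipase Inh. + Vehicle came last in that order, and neighbours among these 3 did not pass against each other. ISO raised Elovl3 by 3.66 ± 0.14 on the log2 scale, 12.7-fold (adjusted p = 5.84e-15), and SR-3420 by 2.53 ± 0.14, 5.80-fold (adjusted p = 5.74e-12). With inhibitors the rise was 1.85 ± 0.16 for ISO, 3.61-fold (adjusted p = 1.38e-09), and 0.74 ± 0.18 for SR-3420, 1.67-fold (adjusted p = 0.0188). The inhibitors thus lowered both responses by nearly the same amount on this scale, with an interaction of -1.81 ± 0.22 for ISO (adjusted p = 1.37e-06) and -1.79 ± 0.23 for SR-3420 (adjusted p = 8.02e-06). ISO exceeded SR-3420 by 1.13 ± 0.11 without inhibitors (adjusted p = 2.04e-07) and by 1.11 ± 0.16 with them (adjusted p = 2.86e-06). Inhibitors alone gave -0.36 ± 0.18 (adjusted p = 0.467). The small rise with SR-3420 under inhibitors did not pass in 6 of the other fits, with adjusted p between 0.0569 and 0.0882, among them those without Lipase Inh. + Vehicle replicate 1 or 2 and without Lipase Inh. + SR-3420 replicate 1 or 3. Without the shallow library, Lipase Inh. + SR-3420 replicate 2, the rise was 0.78 (adjusted p = 0.0286) and the SR-3420 interaction was -1.76 for Elovl3, 0.89 for Irf4 and -0.61 for Ebf2, and these passed (adjusted p = 2.64e-05, 0.00537 and 0.00474).

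Per length, Elovl3 made up 1.78% ± 0.496 (SD, n = 3) of the summed level of the 7 elongases with Vehicle. Its share was 10.8% ± 2.74 with ISO, 8.26% ± 1.12 with SR-3420 and 3.29% ± 0.345 with Lipase Inh. + ISO (SD). It moved up from place 4 to place 2, behind Elovl5, which acts on polyunsaturated chains and stood at 100.7 CPM per kb with Vehicle. Elovl5 rose with ISO by 1.11 ± 0.13 (adjusted p = 2.85e-07) and Elovl6, the elongase of palmitate, by 0.62 ± 0.11 (adjusted p = 6.63e-05). Elovl6 fell with SR-3420 under inhibitors (-0.54 ± 0.11, adjusted p = 0.00571), where Elovl3 rose, but not past the test without Lipase Inh. + SR-3420 replicate 1 (-0.43, adjusted p = 0.0524). Its control in that comparison was itself raised by inhibitors alone (0.70 ± 0.11, adjusted p = 0.000734), and without inhibitors SR-3420 gave 0.35 ± 0.11 (adjusted p = 0.0121). Elovl1 had group means of 24.6 to 28.1 CPM per kb, Elovl4 of 1.16 to 2.05 and Elovl7 of 0.103 to 0.387. Elovl7 rose with ISO under inhibitors (1.31 ± 0.31, adjusted p = 0.000985) and had 0.90 ± 0.37 with ISO alone (adjusted p = 0.0471), which passed in 6 of the 25 other fits. Elovl4 was lower in Lipase Inh. + ISO than in ISO (-0.71 ± 0.22, adjusted p = 0.0128), which did not pass without Lipase Inh. + ISO replicate 2 (adjusted p = 0.0515). Of the 10 other elongases and partner enzymes tested, 5 rose and none fell with ISO, and 3 rose and 2 fell with SR-3420, 50% in each, near the 51.8% and 51.4% of all genes. With total-count scaling these counts were 4 and 3 with ISO and 0 and 3 with SR-3420.

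**Figure D2:**
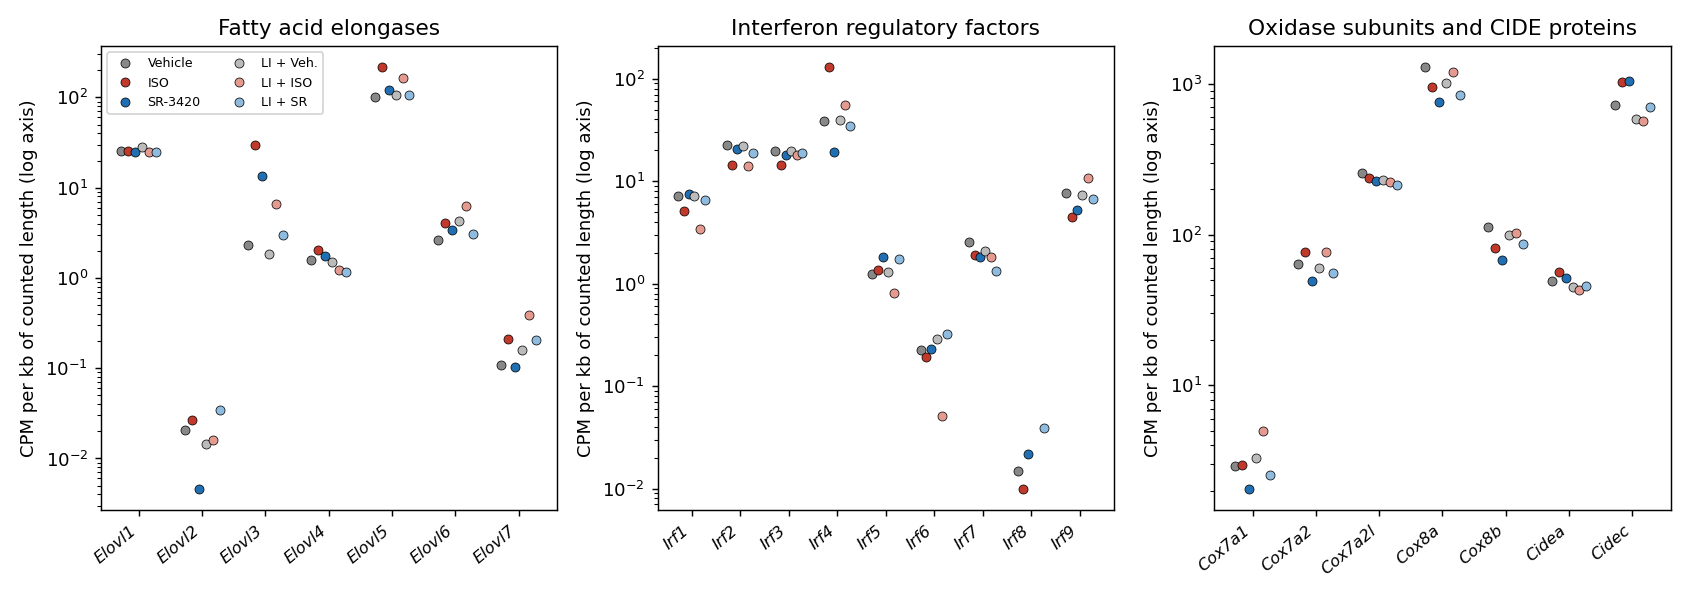
Mean level per kilobase of counted length (CPM per kb, log axis; n = 3 libraries a point) of the elongases, of the interferon regulatory factors and of Cox7a1, Cox8b and Cidea beside their close relatives, in the 6 groups (LI, lipase inhibitors); a group mean of 0 is not drawn. Elovl3 and Irf4 spread over the groups more than most of their relatives, whereas Cox7a1, Cox8b and Cidea lie far below Cox7a2l, Cox8a and Cidec in every group.

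Otop1 (NM_172709, chr5:38668643-38695456, plus strand, 3150 counted bases) rose with both agents from a low level, with 7 to 101 counts a library. It was at 1.90, 2.09 and 1.41 CPM with Vehicle, at 4.09, 5.29 and 4.41 CPM with ISO and at 4.41, 3.82 and 5.29 CPM with SR-3420. Both stimulated groups lay above Vehicle in all 3 libraries and overlapped with each other. The log2 fold change was 1.34 ± 0.27 with ISO (adjusted p = 0.00029) and 1.32 ± 0.27 with SR-3420 (adjusted p = 0.000284), and ISO minus SR-3420 was 0.01 with a 95% interval of -0.48 to 0.51. With inhibitors it was at 0.875, 1.73 and 0.636 CPM with Vehicle, at 1.35, 2.01 and 1.17 CPM with ISO and at 1.71, 1.87 and 1.34 CPM with SR-3420, and these groups overlapped. Neither ISO (0.49 ± 0.34, adjusted p = 0.221) nor SR-3420 (0.59 ± 0.36, adjusted p = 0.469) passed there. The difference from the effect without inhibitors did not pass either, at -0.84 ± 0.44 for ISO (adjusted p = 0.156) and -0.74 ± 0.45 for SR-3420 (adjusted p = 0.239). Lipase Inh. + Vehicle itself differed from Vehicle by -0.80 ± 0.33 (adjusted p = 0.348). Without Lipase Inh. + Vehicle replicate 2 the ISO effect under inhibitors was 0.97 and passed (adjusted p = 0.026). Its relatives Otop2 and Otop3 had 0 counts in every library.

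Set against the same stimulus, Lipase Inh. + ISO differed from ISO by -2.17 ± 0.12 for Elovl3 (adjusted p = 5.61e-12), -1.64 ± 0.28 for Otop1 (adjusted p = 6.01e-05), -1.22 ± 0.15 for Irf4 (adjusted p = 9.18e-07) and -0.41 ± 0.10 for Ebf2 (adjusted p = 0.00207). The first 3 were called, where 6.74% of all genes were. Lipase Inh. + SR-3420 differed from SR-3420 by -2.15 ± 0.15 for Elovl3 (adjusted p = 3.03e-10), -1.54 ± 0.29 for Otop1 (adjusted p = 0.000249) and -0.38 ± 0.10 for Ebf2 (adjusted p = 0.00398), whereas Irf4 was higher by 0.85 ± 0.16 (adjusted p = 0.000176). Elovl3 and Otop1 were called, where 4.12% of genes were. The interaction was called for Elovl3 and Irf4 in the ISO arm, where it passed for 31.4% and was called for 6.89% of genes, and for Elovl3 in the SR-3420 arm, where it passed for 27.3% and was called for 3.82%. ISO against SR-3420 was called for Irf4 and Elovl3 without inhibitors, where 2.04% of genes were, and for Elovl3 alone with inhibitors, where 13.2% were. These comparisons share groups with those above and are not separate evidence.

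**Figure D3:**
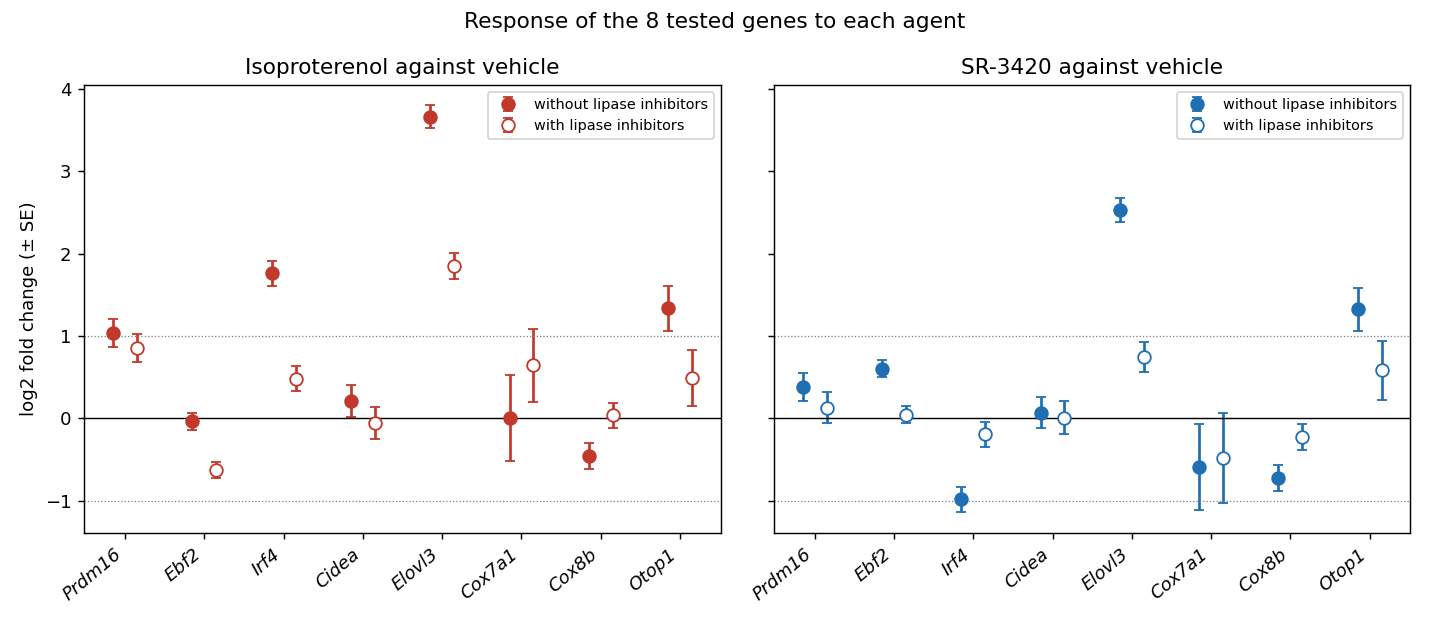
Log2 fold change against the matching vehicle group (points) with its standard error (bars) for the 8 tested genes, for ISO on the left and SR-3420 on the right; filled points are without and open points with lipase inhibitors, and dotted lines mark a log2 fold change of 1 in either direction. Elovl3 has the highest point in all 4 series, Irf4 moves from 1.76 with ISO to -0.99 with SR-3420, and the open points of Irf4 and Otop1 lie closer to 0 than the filled ones in both panels.

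Cidea (NM_007702, chr18:67503218-67527448, plus strand, 1164 counted bases) passed in none of the 11 comparisons. It was at 65.7, 64.8 and 40.4 CPM with Vehicle, at 65.5, 77.1 and 55.1 CPM with ISO and at 51.9, 71.7 and 56.9 CPM with SR-3420, and these groups overlapped. With inhibitors it was at 48.0, 66.4 and 41.4 CPM with Vehicle, at 42.2, 52.7 and 53.9 CPM with ISO and at 59.7, 61.03 and 38.6 CPM with SR-3420, which also overlapped with each other. The log2 fold change was 0.21 with ISO (95% interval -0.19 to 0.61; adjusted p = 0.384) and 0.07 with SR-3420 (95% interval -0.33 to 0.47; adjusted p = 0.785), so that a 2-fold change lies outside both intervals. Lipase Inh. + ISO lay below ISO in all libraries, with a log2 difference of -0.41 (adjusted p = 0.0969), a value that passed in 3 of the 25 other fits. Its relative Cidec, which governs the growth of lipid droplets, was more abundant by an order of magnitude per length and rose with ISO by 0.51 ± 0.09 (adjusted p = 0.000105) and with SR-3420 by 0.53 ± 0.09 (adjusted p = 6.83e-05). The interaction of Cidec was -0.54 ± 0.13 for ISO (adjusted p = 0.00341). With total-count scaling the ISO value of Cidec was 0.20 (adjusted p = 0.103). Clstn3, whose brown fat form acts at lipid droplets, rose with ISO by 2.23 ± 0.13 (adjusted p = 5.94e-12), and these counts cannot tell its forms apart.

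Cox8b (NM_007751, chr7:148084841-148086345, minus strand, 363 counted bases) was lower with both agents. It was at 52.7, 34.6 and 34.5 CPM with Vehicle, at 30.3, 31.7 and 26.8 CPM with ISO and at 20.1, 28.0 and 25.9 CPM with SR-3420. Both stimulated groups lay below all Vehicle libraries. The log2 fold change was -0.46 ± 0.16 with ISO (adjusted p = 0.0172) and -0.72 ± 0.16 with SR-3420 (adjusted p = 0.000544). Vehicle replicate 1 was the highest of the 18 libraries for Cox8b and for its ubiquitous counterpart Cox8a (1028 CPM against 337 to 747 in the others). The sum of the 13 other nuclear-encoded oxidase subunits tested was 1377 CPM there, beside 1145 and 1064 CPM in Vehicle replicates 2 and 3. Only ISO replicate 2, at 1421 CPM, had a higher sum. Without Vehicle replicate 1 the value for Cox8b was -0.22 with ISO (adjusted p = 0.225) and -0.48 with SR-3420 (adjusted p = 0.00999). The ISO value did not pass without ISO replicate 3 either (-0.40, adjusted p = 0.0635). With inhibitors Cox8b was at 34.3, 35.8 and 38.8 CPM with Vehicle, at 34.4, 34.9 and 41.9 CPM with ISO and at 37.1, 31.2 and 25.4 CPM with SR-3420, and the groups overlapped. The interaction was 0.50 ± 0.22 in both arms and did not pass (adjusted p = 0.089 for ISO and 0.104 for SR-3420), although it passed in 3 of the 25 other fits for ISO and in 2 for SR-3420.

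Cox7a1 (NM_009944, chr7:30969190-30971049, plus strand, 366 counted bases) gave 5 to 36 counts a library and passed in no comparison. It was at 1.26, 1.24 and 0.706 CPM with Vehicle, at 0.763, 1.76 and 0.735 CPM with ISO and at 1.40, 0.478 and 0.367 CPM with SR-3420. At this depth the 95% interval of the ISO effect ran from -1.08 to 1.09, so that a 2-fold change in either direction could not be told from none. Its highest level was 1.17, 2.47 and 1.82 CPM in Lipase Inh. + ISO, which lay above Lipase Inh. + SR-3420 by 1.13 ± 0.51 (adjusted p = 0.067), a value that passed in 6 of the 25 other fits.

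Per length, Cox7a1 made up 4.40% ± 1.39 (SD, n = 3) of Cox7a1 plus Cox7a2 with Vehicle, 3.60% ± 1.04 with ISO, 3.92% ± 2.84 with SR-3420 and 6.07% ± 2.11 with Lipase Inh. + ISO. Cox8b made up 8.30% ± 1.47 of Cox8b plus Cox8a with Vehicle, 7.95% ± 0.871 with ISO, 8.31% ± 1.07 with SR-3420 and 7.92% ± 1.19 with Lipase Inh. + ISO. Over 6 comparisons of these shares the two-sided exact permutation p was 0.2 to 1 and the adjusted p was 1, in a design that cannot go below 0.1, so that no difference in share could have passed. Cox8a had a log2 fold change of -0.43 ± 0.22 with ISO (adjusted p = 0.108), which passed in 5 of the 25 other fits, total counts among them (-0.74, adjusted p = 0.00394), and fell with SR-3420 (-0.76 ± 0.22, adjusted p = 0.00672), which did not pass without Vehicle replicate 1 (-0.38, adjusted p = 0.128). Cox7a2 had 0.26 ± 0.11 with ISO (adjusted p = 0.0496), which passed in 5 of the 25 other fits and was -0.05 under total counts, and fell with SR-3420 (-0.38 ± 0.11, adjusted p = 0.00581). Of the 14 subunits tested besides Cox7a1 and Cox8b, with Cox8a and Cox7a2 among them, 3 rose and none fell with ISO, 21.4% beside 51.8% of all genes, and 1 rose and 7 fell with SR-3420, 57.1% beside 51.4%, with medians of 0.13 and -0.45 beside -0.02 over all genes. Under scaling by total counts 4 fell and none rose with ISO and 10 fell with SR-3420, and without Vehicle replicate 1 the SR-3420 counts were 0 higher and 7 lower.

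Dio2 (NM_010050, chr12:91962992-91976878, minus strand, 5815 counted bases) was hardly detected. It had 1, 0 and 0 counts with Vehicle, 6, 0 and 2 with ISO and 0, 0 and 3 with SR-3420. With inhibitors it had 2, 0 and 0 counts with Vehicle, 1, 1 and 0 with ISO and 2, 1 and 0 with SR-3420. Only ISO replicate 1 exceeded 3 counts, and no fold change can be given. Of the other deiodinases, Dio3, which inactivates thyroid hormone, had a log2 fold change of -0.98 ± 0.37 with ISO (adjusted p = 0.0317) and of -1.07 ± 0.36 with SR-3420 (adjusted p = 0.017). Its level was low, with an average log2 CPM of 0.46 beside 0.35 for Cox7a1. The ISO value did not pass in 5 of the 25 other fits, DESeq2 among them (-0.98, adjusted p = 0.0700), and the SR-3420 value in 2. Neither passed without Vehicle replicate 1 (-0.90, adjusted p = 0.0925, and -0.99, adjusted p = 0.0621). Among 15 genes tested for the handling of and response to thyroid hormone, 4 rose and 6 fell with ISO, or 2 and 9 under total counts, and 4 rose and 5 fell with SR-3420. These were 66.7% beside 51.8% of all genes with ISO and 60% beside 51.4% with SR-3420. Usp33, which takes ubiquitin off the Dio2 protein, rose with ISO by 1.34 ± 0.10 (adjusted p = 3.03e-10), and Wsb1, of the ligase that adds it, rose by 1.10 ± 0.10 with ISO (adjusted p = 4.07e-09) and by 1.02 ± 0.10 with SR-3420 (adjusted p = 1.73e-08). The receptor genes Thra (-1.12 ± 0.10 with ISO and -1.01 ± 0.10 with SR-3420) and Rxra (-1.17 ± 0.07 with ISO) fell, with adjusted p of at most 2.30e-08.

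Compared per length, the members spanned several orders of magnitude in Vehicle cells. Cox8b stood at 112 CPM per kb, above 96.0% of the genes tested, Cidea at 48.9, Irf4 at 38.3 and Ebf2 at 22.2. Prdm16 (3.49), Cox7a1 (2.92) and Elovl3 (2.32) lay above 18.4% to 23.6% of the genes tested, and Otop1 (0.571) above 7.21%. With ISO, Irf4 at 130 CPM per kb was above 95.8% of genes and came first among the 9 members, and Elovl3 was above 76.5%. Of the members called with ISO, Elovl3, Otop1 and Prdm16 were low at rest, while Irf4 was not. Cox7a1, also low at rest, did not pass with ISO. A fold change is taken over the level at rest, so level and rise are not independent here.

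Across the 18 libraries Elovl3 and Otop1 (r = 0.83) and Elovl3 and Prdm16 (r = 0.82) varied together most among the members, and Ebf2 and Irf4 varied most in opposite directions (r = -0.64). These are Pearson correlations of log2 CPM, a description over samples that share the 6 treatments. The genes most like Elovl3 among 9410 others were Nr4a1, an immediate early nuclear receptor (r = 0.99), Slc25a25, a mitochondrial ATP-Mg carrier (r = 0.99), and Six4 (r = 0.99), and 3.18% of genes had an r over 0.9 with it. Nearest to Irf4 were Dapk1 (0.90), Rragc (0.88) and Nadk (0.87). For Ebf2 they were Nabp1 (0.95), Bcorl1 (0.93) and Lrrc39 (0.93), for Prdm16 Cmpk1 (0.94), Ppp1r3b (0.93) and Spg21 (0.93), and for Otop1 Pex14 (0.93), Slc5a6 (0.93) and the hexokinase gene Hk2 (0.93). Cidea was nearest to Cpt1b, the carnitine palmitoyltransferase of muscle and brown fat (0.85), Nat10 (0.83) and Impa2 (0.81), Cox8b to Trpc4ap (0.92), Mtch1 (0.91) and the adipsin gene Cfd (0.90), and Cox7a1 to Ndufaf5 (0.78), Ift20 (0.76) and Zbtb7c (0.75). Under Spearman's measure at most 1 of the 3 nearest genes of any member was the same, so these names depend on the measure.

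Of 25 other regulators of brown fat identity tested, 10 rose and 3 fell with ISO, 52% beside 51.8% of all genes, and 10 rose and 5 fell with SR-3420, 60% beside 51.4%, with medians of 0.02 and 0.21. These shares lie near the background. With ISO the largest changes were those of Zfp516, a cold-induced activator of Ucp1 (2.08 ± 0.07, adjusted p = 1.74e-15), Cebpb (1.35 ± 0.12, adjusted p = 7.00e-09), Tle3, a corepressor that favours white fat (1.34 ± 0.10, adjusted p = 2.57e-10), and Ppara (1.30 ± 0.15, adjusted p = 3.36e-07). With SR-3420 they were those of Klf11 (1.71 ± 0.08), Ppara (1.50 ± 0.15), Cebpb (1.47 ± 0.12) and Tle3 (1.41 ± 0.10), with adjusted p of at most 5.82e-08. The one called lower with either agent was Thra, named above. Under scaling by total counts 7 rose and 12 fell with ISO. Among the other EBF genes and selected PRDM genes, 5 of 9 tested rose and 1 fell with ISO, which became 1 and 2 under scaling by total counts, and 6 rose with SR-3420, 66.7% in each. Prdm1 was the one called (1.38 ± 0.56 with ISO, adjusted p = 0.0442, and 2.11 ± 0.50 with SR-3420, adjusted p = 0.00139), and its ISO value did not pass in 13 of the 24 other fits.

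Among 20 other effectors and markers of brown and beige fat tested, 7 rose and 2 fell with ISO, 45.0% beside 51.8% of all genes, and 6 rose and 4 fell with SR-3420, 50% beside 51.4%, with medians of 0.21 and 0.13. Here too the shares lie near the background. Gyk, the glycerol kinase gene, rose by 3.08 ± 0.10 with ISO (adjusted p = 5.48e-16) and by 1.38 ± 0.10 with SR-3420 (adjusted p = 3.84e-10). Alpl, of futile creatine cycling (1.96 ± 0.09, adjusted p = 1.35e-13), Nrg4, a secreted factor (1.91 ± 0.10, adjusted p = 8.24e-13), and the beige marker Cited1 (1.08 ± 0.26, adjusted p = 0.00149) rose with ISO. With SR-3420 the thioesterase gene Acot2 rose (1.07 ± 0.09, adjusted p = 3.37e-09) and Gamt, of creatine synthesis, fell (-1.13 ± 0.26, adjusted p = 0.000992). Total-count scaling made the ISO counts 5 and 4. Among the marker lists the genes called with ISO were Nnat of the white list (1.10 ± 0.27, adjusted p = 0.00159) and Myod1 of the muscle list (1.55 ± 0.58, adjusted p = 0.0304), which did not pass in 6 of the 25 other fits, total counts among them. Nnat passed in all 25 and fell short of the threshold of 1 in 3. In the white list 2 of the 5 genes tested passed higher and 1 lower with ISO, with a median of 0.15. Only 2 of the 8 muscle genes were tested, with a median of 0.70, and Myod1 alone passed. The whole muscle list summed to at most 2.63 CPM in any library, so the Myod1 value comes from a very low level.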

How the data were processed

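RNA-seq libraries of the 18 samples were made by the authors with TruSeq kits, aligned to mm9 with STAR 2.4.2a, turned into tag directories with HOMER and counted per RefSeq gene with iRNA-seq, per the labels and the study's methods. Whether strand was used in counting is not given in the sources used here, and 100 bases of Dio2 exons, 20 of Cidea exons and 10 of Elovl3 exons are shared with genes on the other strand. The deposited table holds raw counts, unscaled and unfiltered, in which the highest value is 320 counts per counted base (Scd1). Its starts count from 0 and are printed counting from 1. The table held 0 columns of other samples.

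Sample titles gave the groups and replicate numbers. Counts were tested in R 4.3.3 with edgeR 4.0.16: filterByExpr (minimum count 10, minimum total 15), TMM scaling, 1 quasi-likelihood model with a mean per group over the 18 samples, contrasts and interactions, and Benjamini-Hochberg adjustment. Calls needed an adjusted p no higher than 0.05 and a log2 fold change of 1 or more in size, as in the study. Standard errors were taken from the fold change and its F statistic, and intervals are 95% intervals from the same. The pipeline was tested on simulated data. Likeness between genes used log2 CPM with a prior count of 2 among genes of an average log2 CPM of at least 3. The members, gene lists and motifs were chosen with earlier results of these data known. Named genes were the members, the up to 4 genes of each list with the largest called change in each direction with ISO and with SR-3420, the isoform partners, the elongases and the 3 genes most like each member; Ebf1 and the smaller interferon regulatory factor changes were added after their values were seen. Alternatives were DESeq2 1.42.0, RLE factors, total counts, no filter, a filter of at least 1 CPM in 3 samples, a fit of only the groups compared, a replicate block and each library left out. No pair of libraries of a group matched within sampling noise. Starts and exons were read from GENCODE and promoter bases from the mm9 genome; 1 promoter is not reported here. Protein sequences were not used here.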

Additional observations from a re-analysis of the deposited data

Results flagged for a closer look

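For 3 of the 8 members tested, the effect of an agent differed between cells with and without lipase inhibitors by a test of the interaction in the model over all samples (effect with inhibitors minus effect without, log2 scale). The difference was -1.81 for Elovl3, -1.28 for Irf4 and -0.59 for Ebf2 with ISO. With SR-3420 it was -1.79 for Elovl3, 0.79 for Irf4 and -0.56 for Ebf2. Irf4 was the one of the 3 whose difference had opposite signs for the agents. Of all genes tested, 31.4% passed the test of the interaction with ISO and 27.3% with SR-3420, so the count of members lies near the background. Groups of 3 were not tested for outlying samples.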

How the results depend on the processing

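With 3 libraries a group and low counts for Cox7a1, Otop1 and Dio2, small changes of these genes were not detectable. The count of members called was 3 or 4 for ISO against Vehicle and 2 or 3 for SR-3420 against Vehicle in every alternative: Prdm16 with ISO (1.04) and Irf4 with SR-3420 (-0.99) lay close to the threshold of 1. Under scaling by total counts, ISO against SR-3420 had 1 member called in place of 2, and Lipase Inh. + ISO against Lipase Inh. + SR-3420 had 0 in place of 1, while the latter had 2 without a filter, with only the groups compared and with the replicate block. Leaving out single libraries gave 1 to 2 for both of these (1 for the former without ISO replicate 2; 2 for the latter without SR-3420 replicate 1, Lipase Inh. + ISO replicate 1 or Lipase Inh. + Vehicle replicate 3) and 1 to 2 for Lipase Inh. + ISO against Lipase Inh. + Vehicle (2 without Lipase Inh. + Vehicle replicate 2). The cause was not tested.

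Fold changes that turned direction were small. Under total counts these were Cidea with ISO (-0.10) and with SR-3420 (-0.090), Otop1 for ISO against SR-3420 (-0.13), Ebf1 with ISO (-0.26) and Cox7a2 with ISO (-0.052). Of these only Ebf1 passed under total counts (adjusted p = 0.0281). With the replicate block Otop1 for ISO against SR-3420 was -0.019. Over the fits that left out a library, Otop1 for ISO against SR-3420 ran from -0.10 to 0.15, Ebf2 with ISO from -0.10 to 0.088 and Cidea with SR-3420 from -0.12 to 0.19. The difference in the share of Cox7a1, in percentage points, ran from -2.11 to 0.41 for SR-3420 against Vehicle. That in the share of Cox8b ran from -0.92 to 0.49 for ISO against Vehicle, from -0.56 to 0.85 for SR-3420 against Vehicle and from -0.53 to 0.65 for Lipase Inh. + ISO against ISO.

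Replicate numbers were shared between groups. The samples were not treated as paired, because the labels do not say that a number marks a shared experiment. Same-numbered samples deviated together for number 3 (mean r = 0.19, 15 of 15 pairs over 0.1) and number 2 (0.15, 12 of 15). They did not for number 1 (-0.01, 1 of 15). Deviations were taken from the group mean, so a number that lies between the others can give a small r even in a shared experiment. These values therefore cannot decide on pairing. That 12 of 18 samples correlated best with their own number is a hint from the data that they may share an experiment. With the block, Prdm16 passed with SR-3420 (0.40, adjusted p = 0.00161), Cidea for Lipase Inh. + ISO against ISO (-0.37, adjusted p = 0.0214) and Cox7a1 for Lipase Inh. + ISO against Lipase Inh. + SR-3420 (1.05, adjusted p = 0.0471), as did Cox8a with ISO (-0.43, adjusted p = 0.0305). Elovl5 also passed with SR-3420 (0.28, adjusted p = 0.000236, beside 0.0738 without the block). Elovl7 with ISO no longer passed (0.90, adjusted p = 0.0543).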
